A study of Homo sapiens with 24 samples.

Results

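The 10 genes described here encode the enzymes that activate fatty acids and build triglyceride from them: the long-chain acyl-CoA synthetases ACSL1, ACSL3, ACSL4 and ACSL5, the glycerol-3-phosphate acyltransferases GPAT3, GPAT4 and GPAM, the diacylglycerol acyltransferases DGAT1 and DGAT2, and the lipid droplet coat protein PLIN2. They were taken by symbol from the 58735 genes of the count tables. ACSL5 and GPAT3 were selected on their measured counts, which were lower in the line with both degrons than in WT cells before auxin, so that difference is described below without a test. The other 8 genes were added as members of the same pathway. All 10 were counted in every library, at 107 counts or more, and all 10 passed the filter on low counts in every comparison.

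RNA was sequenced from HCT116, a human colorectal carcinoma line, carrying a doxycycline-inducible OsTIR1, the plant receptor through which auxin marks a tagged protein for degradation. WT cells carried no degron tag. In UHRF1-AID cells an auxin-inducible degron (AID) was fused to UHRF1, which recruits the methylation machinery to newly replicated DNA. In DNMT1-AID cells it was fused to DNMT1, the maintenance DNA methyltransferase, and UHRF1-AID/DNMT1-AID cells, called the compound line below, carried it on both proteins. Each line was sampled at day 0 and after 4 days of auxin, with 3 libraries in each of 8 groups, 24 in all. By the study's methods the tagged lines were single-cell clones, and 3 clones of each tagged line served as replicates. The study calls the RNA-seq replicates of every line and day biological. WT cells at day 4 received auxin too. The protocol gave doxycycline at 2 µg/mL with auxinole, an inhibitor of OsTIR1, at 20 µM for a day and then doxycycline with auxin at 500 µM, and the labels do not say which of these the day 0 cells received.

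Each library held 15824804 to 25073821 counts on genes. By the file headers, every day 0 library (12) and UHRF1-AID at day 4 (3 libraries) had been aligned in 1 folder and the remaining 9 of day 4 in another, and only those 9 libraries held ERCC spike-in counts. The comparison of UHRF1-AID with the other lines at day 4, and that of day 4 with day 0 in the other 3 lines, therefore fall across the folders, and for these the folder and the group cannot be told apart. The same holds for the day effect of UHRF1-AID minus that of WT or DNMT1-AID cells. Of 9 markers of colorectal epithelium, 8 lay above 1 CPM on average, CPM being counts scaled by TMM to a common library size. Of 9 enterocyte markers 2 did, of 6 fibroblast markers 1, and none of 6 leukocyte or 6 adipocyte markers, and 3 of the adipocyte markers were at 0 in every library. Relative to the mean of the libraries of the same day, some libraries leaned toward long genes and others toward short ones. The Spearman correlation of gene length with each gene's deviation from that day's mean log2 CPM lay between -0.299 and 0.314. At day 4 the 3 UHRF1-AID/DNMT1-AID libraries lay between -0.202 and -0.169 and the WT libraries between -0.112 and 0.126. The UHRF1-AID libraries at day 4 lay between -0.108 and 0.285 and the DNMT1-AID libraries between -0.0709 and 0.0555. Length lean and group therefore cannot be told apart where the compound line at day 4 is compared with another line at day 4. The compound line at day 0 lay between -0.0772 and -0.0108, relative to the day 0 mean. Whether lean and group can be told apart between its days cannot be read from these values. The degrons act on protein, so the mRNA of the targets is no check of the depletion. The UHRF1 mRNA difference of UHRF1-AID from WT cells at day 4 was 1.05 on the log2 scale (SE 0.38, adjusted p = 0.103) and the DNMT1 mRNA difference of DNMT1-AID from WT cells was -1.02 (SE 0.275, adjusted p = 0.0699). In bulk RNA, fewer cells of a type and less RNA per cell cannot be told apart.

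Fatty acids enter metabolism as acyl-CoA thioesters. ACSL enzymes make these thioesters, each with its own preference for chain and for membrane. GPAT enzymes join the first acyl chain to glycerol 3-phosphate, acyltransferases and phosphatases of the next steps give diacylglycerol, and DGAT enzymes add the last chain to give triglyceride, which is stored in droplets coated by perilipins such as PLIN2. In the intestine this pathway packages dietary fat, and ACSL5 is the ACSL enzyme most associated with intestinal epithelium.

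The starts of ACSL5 and GPAT3 are shown because these genes were selected on their counts and because the targeted proteins act on CpG methylation. Both windows are the 250 bases before an annotated start in RefSeq (GRCh38.p14), written 5′ to 3′ on the gene's strand, with each CG dinucleotide in capitals. The ACSL5 window is chr10:112375018-112375267 on the plus strand, and the GPAT3 window is chr4:83535857-83536106 on the plus strand.
ACSL5: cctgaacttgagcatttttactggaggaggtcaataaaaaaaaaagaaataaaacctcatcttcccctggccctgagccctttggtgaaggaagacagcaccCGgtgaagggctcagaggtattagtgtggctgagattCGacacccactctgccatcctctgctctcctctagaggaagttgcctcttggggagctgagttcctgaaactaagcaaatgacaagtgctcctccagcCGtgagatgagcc
GPAT3: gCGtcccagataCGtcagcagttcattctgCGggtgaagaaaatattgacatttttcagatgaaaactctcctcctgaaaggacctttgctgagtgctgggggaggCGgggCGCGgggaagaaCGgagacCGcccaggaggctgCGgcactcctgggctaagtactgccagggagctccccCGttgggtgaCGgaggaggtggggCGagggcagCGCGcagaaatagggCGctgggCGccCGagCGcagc

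The 2 genes differed in CG content. The ACSL5 window held 3 CG dinucleotides, and the window of a further annotated start of the gene held 2. Both ACSL5 windows lie downstream of the first base of the gene as counted, chr10:112374018. The sequence before that base was not read. The GPAT3 window held 18, and the median over 35116 windows of all genes was 11. Among the other members with a window, ACSL3 held 35 and ACSL4 42, GPAM 20 and PLIN2 28, while the 5 windows of ACSL1 held between 4 and 41. Windows were found for 7 of the 10 genes. The motif AGGTCA, the half-site of nuclear receptors such as the PPARs, was searched on both strands together with TATAAA and CACGTG, none of which contains another. AGGTCA occurred in the first ACSL5 window and in 12.1% of all windows. TATAAA and CACGTG occurred in neither the ACSL5 nor the GPAT3 windows and in 10.7% and 6.34% of all windows. Methylation of these windows was not analysed here.

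In WT cells at day 0 the levels per kilobase of exon placed ACSL5 first, at 36.6 ± 2.57 CPM per kb (SD, n = 3). ACSL3 followed at 28.5 ± 1.23 CPM per kb and GPAT3 at 25.2 ± 2.25 CPM per kb, with ranges that met at their ends without overlapping, from 27.2 to 29.65 and from 22.77 to 27.19. ACSL4 stood at 15.4 ± 1.67 CPM per kb and DGAT1 at 13.45 ± 1.04, with ranges that overlapped. GPAT4 stood at 5.82 ± 0.557 CPM per kb and PLIN2 at 4.80 ± 0.425, which overlapped, as did ACSL1 at 3.12 ± 0.571 and GPAM at 2.66 ± 0.269. DGAT2 came last at 0.898 ± 0.0925 CPM per kb. Thus ACSL5 was the most abundant of the 4 ACSL transcripts and GPAT3 of the 3 GPAT transcripts per length in untagged cells. Of the exon bases, 8.85% were shared with genes on the other strand in ACSL5, 9.27% with other genes in GPAT4 and 11.1% in DGAT1, and 0% in GPAT3, GPAM and PLIN2. The sources do not say whether counting used the strand, so reads of these shared bases cannot be told apart.

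ACSL5 lies at chr10:112374018-112428380 on hg38 (ENSG00000197142). It varied more between the lines than between the days, which follows in part from its choice on a line difference at day 0. Its level in the WT day 0 libraries was 143, 158 and 164 CPM, and in the compound line at day 0 it was 34.4, 34.7 and 32.6 CPM. UHRF1-AID cells at day 0 read 49.3, 80.4 and 50.2 CPM, and DNMT1-AID cells 136, 192 and 74.3 CPM. The compound line was thus the lowest group with almost no spread, UHRF1-AID lay between it and WT without touching either, and the DNMT1-AID clones spread on both sides of WT, with replicate 3 far below the other 2. At day 4 the libraries of WT cells held 127, 132 and 124.5 CPM and those of UHRF1-AID cells 55.8, 80.3 and 70.7 CPM. DNMT1-AID cells held 173, 155 and 118 CPM, and the compound line 45.3, 46.9 and 35.2 CPM. The order of the groups at day 4 was that of day 0 except that DNMT1-AID now lay above WT on average, with overlapping ranges.

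GPAT3, an acyltransferase of the endoplasmic reticulum at chr4:83535914-83605875 (ENSG00000138678), had the same low groups, that of the compound line at day 0 by the choice of the gene. In WT cells at day 0 it stood at 79.0, 94.3 and 89.2 CPM, and in the compound line at 30.35, 29.2 and 23.8 CPM. UHRF1-AID cells held 64.2, 34.8 and 57.5 CPM at day 0 and DNMT1-AID cells 70.6, 91.95 and 34.5 CPM. Replicate 2 of UHRF1-AID was low for GPAT3 but the highest of its group for ACSL5, whereas replicate 3 of DNMT1-AID was low for both. By day 4, WT cells held 106.5, 109 and 101 CPM, UHRF1-AID cells 56.9, 43.1 and 33.0 CPM, DNMT1-AID cells 72.7, 113 and 54.9 CPM, and the compound line 23.5, 29.3 and 26.05 CPM. No library of either line with tagged UHRF1 reached the lowest WT library of the same day, for either gene.

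Summed marker levels were read in the same groups. The summed level of the 9 enterocyte markers, 1 of them at 0 in every library, was 45.05 to 64.92 CPM in WT cells at day 0, 22.92 to 36.18 CPM in the compound line, 32.09 to 48.28 CPM in UHRF1-AID and 43.75 to 73.34 CPM in DNMT1-AID cells. At day 4 it was 27.6 to 32.52 CPM in WT, 17.1 to 21.15 CPM in UHRF1-AID and 27.29 to 60.65 CPM in DNMT1-AID cells, while the compound line, at 30.95 to 31.69 CPM, lay within the WT range. The 6 fibroblast markers summed to 16.26 to 20.2 CPM in the compound line at day 4 and to 3.316 to 8.778 CPM in WT, and the 9 epithelial markers to 5625 to 6252 and 7557 to 7817 CPM. The part of these markers in the differences of ACSL5 and GPAT3 was not tested.

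**Figure D1:**
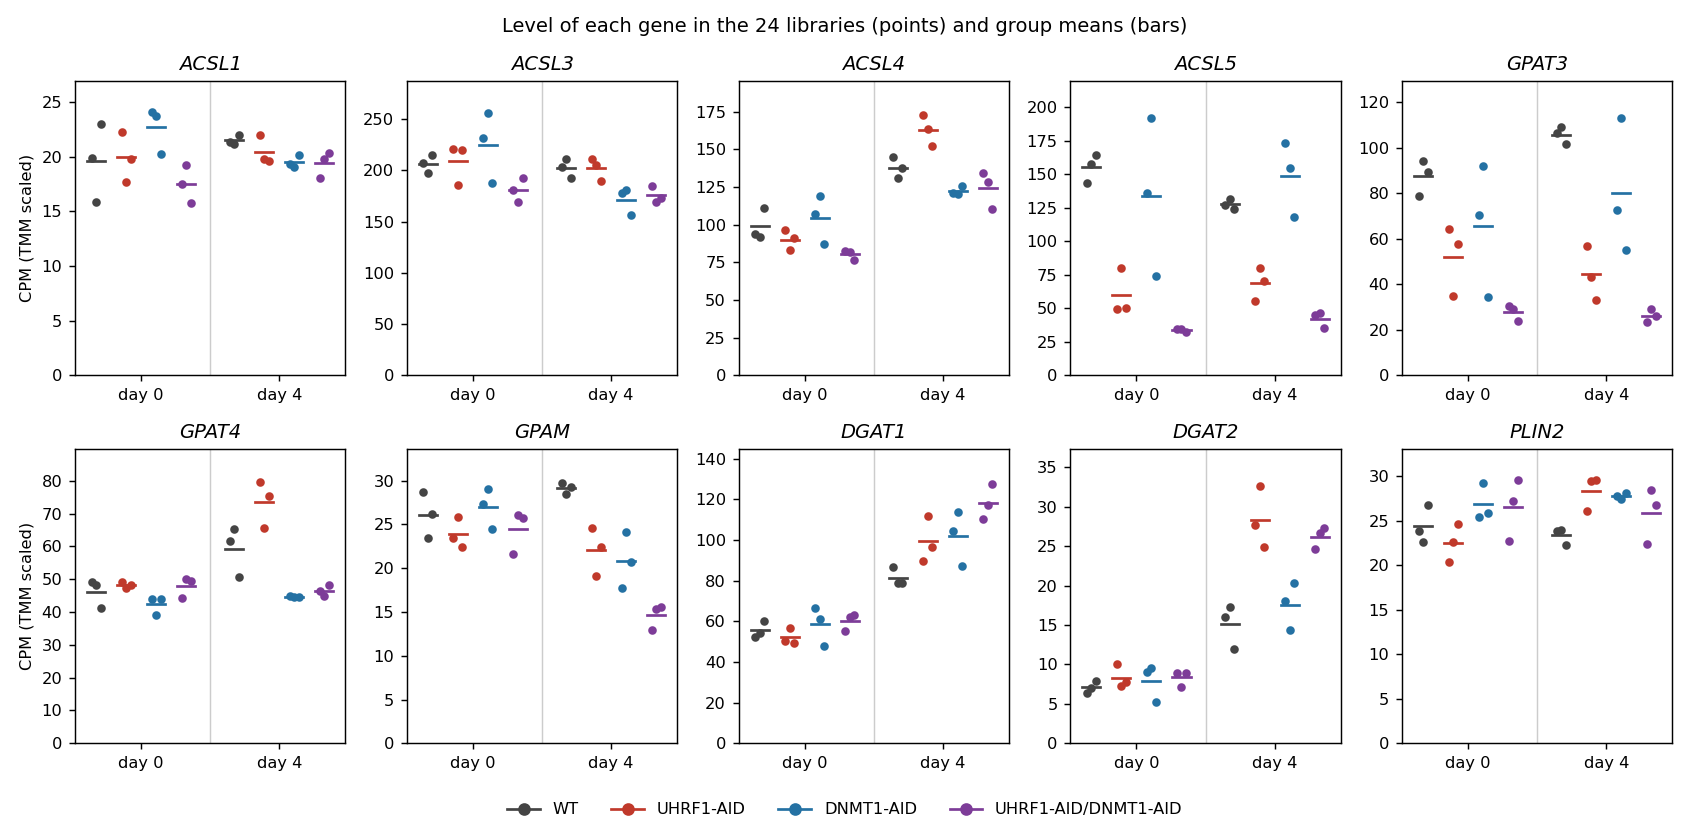
Level of each of the 10 genes in CPM in the 24 libraries (points) with the mean of each group (bars), at day 0 on the left and day 4 on the right of each panel. ACSL5 and GPAT3 separate WT from the lines with tagged UHRF1 at both days, while DNMT1-AID overlaps with WT. UHRF1-AID/DNMT1-AID is lowest at 32.6 to 46.9 and 23.5 to 30.35 CPM, and DGAT1 and DGAT2 separate the days.

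Before auxin, the fitted difference of UHRF1-AID/DNMT1-AID from WT cells was -2.21 for ACSL5 (SE 0.0913, a 4.63-fold lower level) and -1.67 for GPAT3 (SE 0.13, 3.19-fold lower) on the log2 scale. The other 8 genes lay between -0.32 for ACSL4 and 0.22 for DGAT2 in the same contrast. These values belong to the contrast that chose ACSL5 and GPAT3 and carry no test, and 3.64% of all genes tested passed there. With 1 tag, the fitted ACSL5 difference from WT at day 0 was -1.36 (SE 0.196) in UHRF1-AID cells and -0.26 (SE 0.299) in DNMT1-AID cells, and that of GPAT3 was -0.74 (SE 0.21) and -0.46 (SE 0.314). These share the WT libraries of the choice and are likewise a description. Without replicate 3 of DNMT1-AID the ACSL5 value there was 0.03. None of the 8 other genes passed the test in UHRF1-AID or in DNMT1-AID cells at day 0, and 0 of them had an unadjusted p under 0.05 in edgeR in either line, with 0 passing in DESeq2 too. Over all genes the shares that passed were 0.00% and 0.00723%.

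At day 4 the test used libraries that had no part in the choice, although they came from the same lines. In the compound line 6 of the 10 genes passed (adjusted p under 0.05, edgeR quasi-likelihood test with Benjamini-Hochberg adjustment over all genes), against 38.2% of all genes tested. Among these 6 were ACSL5 and GPAT3, chosen for a low level in the same line at day 0. Counts and medians that include this pair are therefore a description, as are its own p-values. This holds here and in other comparisons of this line or of WT. None of them tells a change under auxin from the difference already present at day 0. ACSL5 was 2.97-fold lower than in WT cells (log2 -1.57, SE 0.109, adjusted p = 4.73e-10) and GPAT3 3.97-fold lower (log2 -1.99, SE 0.107, adjusted p = 8.72e-12). The median log2 fold change of the 10 genes was -0.158 beside 0.0157 over all genes. ACSL5 and GPAT3 were also the only members past an absolute log2 fold change of 1, which 11.7% of all genes passed together with the test. In the other day 4 comparisons, the members past both thresholds were 1 in UHRF1-AID and 0 in DNMT1-AID cells against WT (6.99% and 2.57% of all genes), 1 between UHRF1-AID and DNMT1-AID cells (5.31%), and 0 and 2 between the compound line and UHRF1-AID or DNMT1-AID cells (5.13% and 6.84%). For the day effects they were 1, 1, 1 and 2 in WT, UHRF1-AID, DNMT1-AID and the compound line (11.9%, 21.9%, 15.3% and 26.6%). The comparison with WT at day 4 lay within 1 alignment folder, and the largest library for either gene in the compound line was under the smallest in WT.

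UHRF1-AID cells gave the same direction for both genes with smaller differences. Of the 10 genes 3 passed against WT at day 4, ACSL5, GPAT3 and DGAT2, where 17.4% of all genes did. The median was 0.109 over the 10 beside 0.0267 over all genes. ACSL5 was 1.86-fold lower (log2 -0.90, SE 0.141, adjusted p = 0.00285) and GPAT3 2.40-fold lower (log2 -1.26, SE 0.177, adjusted p = 0.00179). The compound line differed from UHRF1-AID cells in 4 of the 10 genes, beside 17.8% of all genes, with -0.66 for ACSL5 (SE 0.16, adjusted p = 0.0215) and -0.71 for GPAT3 (SE 0.19, adjusted p = 0.0303). Either difference missed the threshold in 4 of 6 fits made without 1 library and with all 24 libraries in 1 fit (adjusted p = 0.0753 and 0.117), and GPAT3 missed it with each library's length slope in the fit (adjusted p = 0.361).

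In DNMT1-AID cells at day 4 neither gene was called against WT. Of the 10 genes 2 passed there, GPAT4 and GPAM, beside 7.95% of all genes, and the median was -0.15 beside 0.00167 over all genes. ACSL5 differed from WT by 0.22 (SE 0.119, adjusted p = 0.27) and GPAT3 by -0.39 (SE 0.258, adjusted p = 0.409). The GPAT3 value rested on the DNMT1-AID library of replicate 2, at 113 CPM, and without it the difference was -0.72 with an adjusted p of 0.00115. Directly compared at day 4, UHRF1-AID and DNMT1-AID cells differed in 4 of the 10 genes, beside 13.9% of all genes, and UHRF1-AID cells held less ACSL5 than DNMT1-AID cells (log2 -1.15, SE 0.176, adjusted p = 0.00497). For GPAT3 the same difference was -0.90 (SE 0.282, adjusted p = 0.0684), and it passed in DESeq2 (adjusted p = 0.0062). The compound line differed from DNMT1-AID cells in 4 of the 10 genes, beside 20.5% of all genes, and held less of both, by log2 -1.80 for ACSL5 (SE 0.147, adjusted p = 6.68e-06) and -1.60 for GPAT3 (SE 0.295, adjusted p = 0.0188), the latter missing the threshold in 3 of 6 fits without 1 library, those without any 1 of the compound line's libraries.

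The length lean of the libraries touches this last comparison. With each library's length slope in the fit, the values of UHRF1-AID/DNMT1-AID against DNMT1-AID were -0.46 for ACSL5 and -0.34 for GPAT3, both with an adjusted p of 0.997. Against WT at day 4, the range of ACSL5 over all settings other than leaving out a library was -1.62 to -1.55 in the compound line and -0.93 to -0.84 in UHRF1-AID cells, and that of GPAT3 was -2.15 to -1.97 and -1.30 to -1.26.

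Between day 0 and day 4 no change in ACSL5 or GPAT3 was called where it was tested. In UHRF1-AID cells, whose libraries of both days share a folder, the day 4 to day 0 difference was 0.22 for ACSL5 (SE 0.216, adjusted p = 0.416) and -0.21 for GPAT3 (SE 0.252, adjusted p = 0.516). In DNMT1-AID cells it was 0.17 (SE 0.344, adjusted p = 0.723) and 0.31 (SE 0.434, adjusted p = 0.611). The day values of the other 2 lines are a description, since the choice used their day 0 libraries: for ACSL5 -0.28 in WT and 0.37 in the compound line, and for GPAT3 0.27 and -0.04.

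The other acyl-CoA synthetases kept a narrower range. ACSL3 (chr2:222860934-222944639), which sits on the endoplasmic reticulum and on nascent droplets, was at 169.2 to 255.9 CPM at day 0 and 156.4 to 211.1 CPM at day 4. It did not pass in any comparison of lines. In DNMT1-AID cells it fell by 0.37 on the log2 scale from day 0 to day 4 (SE 0.134, adjusted p = 0.0482), and this call was lost in 5 of 6 fits without 1 library and under 4 further settings. ACSL1 (chr4:184755595-184826818), the main ACSL of fat, heart and liver, was low at 15.79 to 24.06 CPM over all 24 libraries and passed in no comparison.

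ACSL4 (chrX:109624244-109733403) prefers arachidonic acid and other polyunsaturated chains. At day 0 its level was 93.8, 91.6 and 111 CPM in WT cells and 96.3, 83.3 and 90.8 CPM in UHRF1-AID cells. By day 4 it was 145, 131 and 138 CPM in WT cells and 173, 164 and 152 CPM in UHRF1-AID cells, above every day 0 library of the same line. The rise was 1.84-fold in UHRF1-AID cells (log2 0.88, SE 0.11, adjusted p = 0.000239), 1.59-fold in the compound line (log2 0.67, SE 0.0825, adjusted p = 1.10e-06) and 1.40-fold in WT cells (log2 0.48, SE 0.109, adjusted p = 0.0094). With the length slope as covariate the call in the compound line was lost (log2 1.66, adjusted p = 0.517). In DNMT1-AID cells the difference was 0.25 (SE 0.129, adjusted p = 0.145), with ranges from 87.1 to 118.9 CPM at day 0 and from 120.4 to 125.9 CPM at day 4. The day effect of UHRF1-AID minus that of DNMT1-AID was 0.56 (SE 0.154, adjusted p = 0.0807). At day 4 UHRF1-AID cells held 1.29-fold more ACSL4 than DNMT1-AID cells (adjusted p = 0.04), a call lost in 5 of 6 fits without 1 library.

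**Figure D2:**
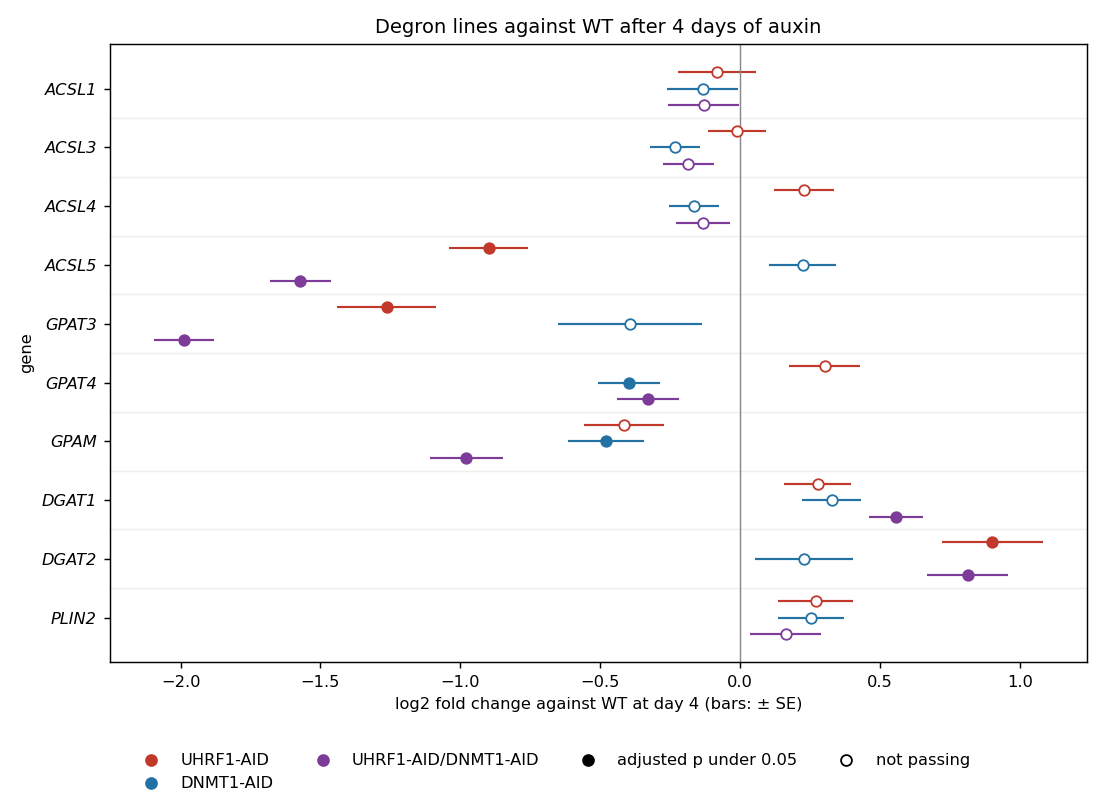
Log2 fold change of each of the 10 genes against WT at day 4 in the 3 degron lines, with bars of 1 SE and filled points for an adjusted p under 0.05. ACSL5 and GPAT3 lie far to the left in the lines with tagged UHRF1, GPAM is lowest in the compound line at -0.98, and DGAT2 lies to the right in the same 2 lines at 0.90 and 0.81.

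As a share of the summed per-length level of the 4 ACSL genes, ACSL5 made up 43.8% ± 1.87 (SD, n = 3) in WT cells at day 0 and 16.6% ± 0.723 in the compound line. At day 4 it made up 36.3% ± 0.701 in WT, 43.1% ± 4.17 in DNMT1-AID, 22.3% ± 3.69 in UHRF1-AID and 17.6% ± 1.73 in the compound line. The summed ACSL level per kb was lower in the compound line, at 56.7 ± 3.74 CPM per kb at day 4 beside 83.0 ± 1.84 in WT, and ACSL3 was there the largest component at 42.8%. Among the 3 GPAT genes, GPAT3 held 74.5% ± 1.04 in WT cells at day 4 and 50.7% ± 2.89 in the compound line. These shares carry no test, and at day 0 they follow from the choice of the pair.

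**Figure D3:**
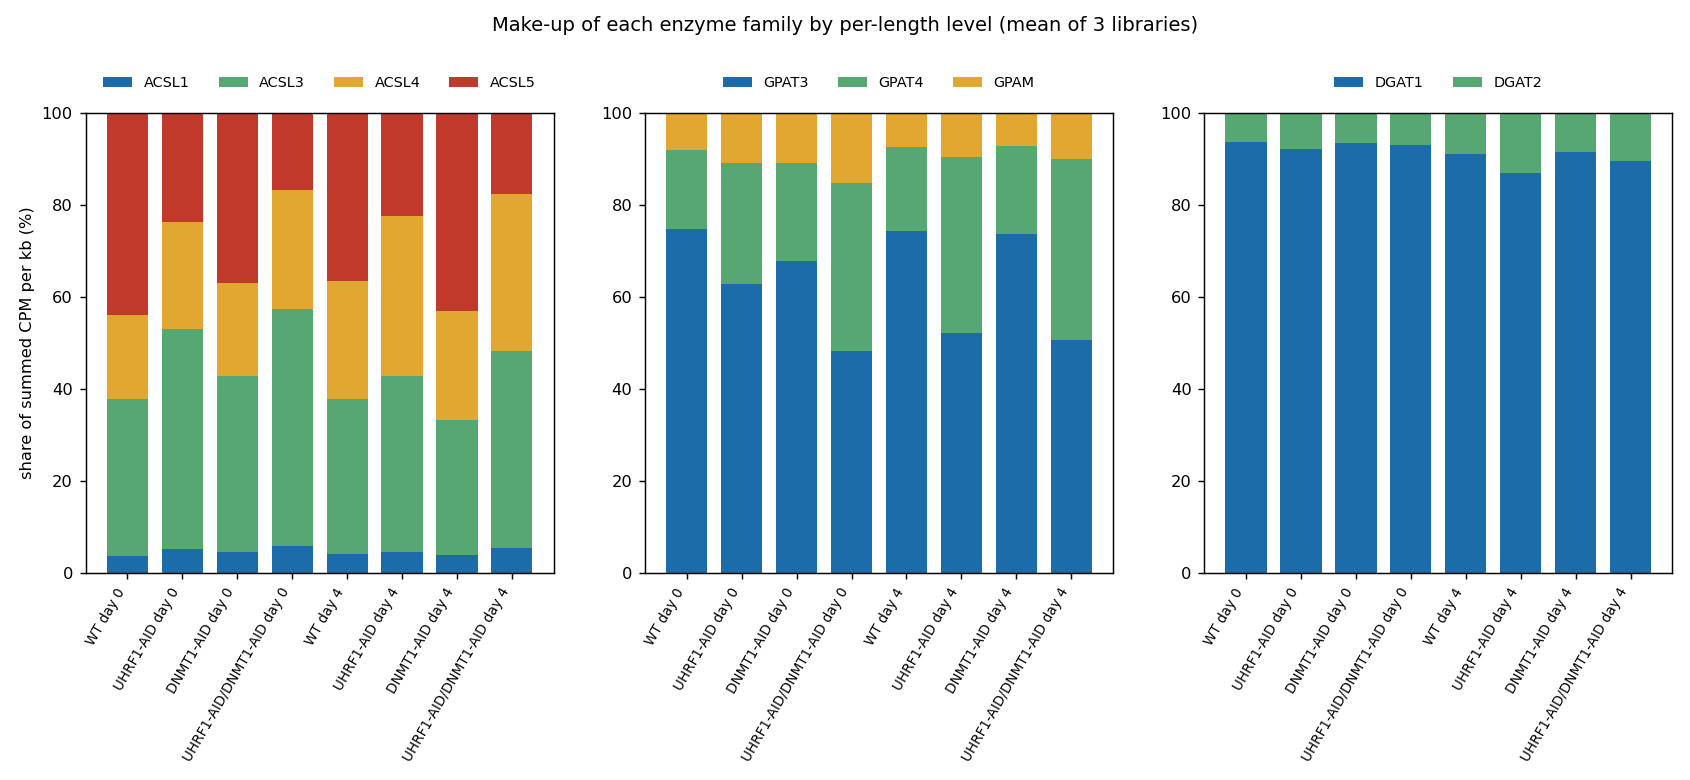
Make-up of the ACSL, GPAT and DGAT families in the 8 groups, as the mean share in percent of the family's summed CPM per kb over 3 libraries. ACSL5 and GPAT3 take a smaller share in the groups with tagged UHRF1 (16.6% to 23.5% and 48.3% to 62.9%), and DGAT1 makes up 87.0% to 93.8% of the DGAT pair in every group.

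The remaining 2 GPAT genes were GPAM and GPAT4. GPAM (chr10:112149864-112215377) encodes the mitochondrial enzyme GPAT1. It stood at 29.7, 28.5 and 29.3 CPM in WT cells at day 4 and at 12.9, 15.3 and 15.6 CPM in the compound line, without overlap. That was 1.97-fold lower (log2 -0.98, SE 0.13, adjusted p = 5.25e-06). Within the compound line it fell by 0.70 from day 0 to day 4 (SE 0.114, adjusted p = 2.95e-05), from 21.6, 26.1 and 25.7 CPM. UHRF1-AID cells held 24.6, 19.1 and 22.4 CPM at day 4 and differed from WT by -0.41 (SE 0.142, adjusted p = 0.0721). This difference passed with all 24 libraries in 1 fit (adjusted p = 0.0117) and with the length slope as covariate (adjusted p = 0.0126). It also passed without replicate 1 of UHRF1-AID at day 4 (adjusted p = 0.0439). DNMT1-AID cells held 17.7, 24.1 and 20.7 CPM and differed by -0.48 (SE 0.135, adjusted p = 0.0418), a call that 4 of 6 fits without 1 library lost. The compound line was also below UHRF1-AID (log2 -0.55, adjusted p = 0.0387) and DNMT1-AID cells (log2 -0.50, adjusted p = 0.0162), calls lost in 5 and 2 of 6 such fits and with the length slope as covariate (adjusted p = 0.519 and 0.997). In the day comparison of the compound line the length slope as covariate gave -2.75 with an adjusted p of 0.373.

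GPAT4 (chr8:41577187-41625001), another enzyme of the endoplasmic reticulum, rose in UHRF1-AID cells, from 49.1, 47.5 and 48.4 CPM at day 0 to 79.5, 65.5 and 75.2 CPM at day 4 (log2 0.63, SE 0.113, adjusted p = 0.00153). WT cells went from 49.2, 48.3 and 41.1 CPM to 61.6, 65.2 and 50.7 CPM, a difference of 0.36 (SE 0.13, adjusted p = 0.0607). In both lines with tagged DNMT1 the day effect did not pass, at 0.10 (SE 0.117, adjusted p = 0.522) in DNMT1-AID and -0.0013 (SE 0.0807, adjusted p = 0.989) in the compound line. At day 4 the compound line held less GPAT4 than UHRF1-AID cells (log2 -0.62, SE 0.113, adjusted p = 0.00843), and UHRF1-AID cells held more than DNMT1-AID cells (log2 0.67, SE 0.114, adjusted p = 0.00698). Against WT the differences at day 4 were -0.40 in DNMT1-AID (adjusted p = 0.0409) and -0.33 in the compound line (adjusted p = 0.0219), which 5 and 4 of 6 fits without 1 library lost. With the length slope as covariate the compound line's values were -0.69 against WT (adjusted p = 0.078) and -0.40 against UHRF1-AID cells (adjusted p = 0.147). The day effects of UHRF1-AID and of DNMT1-AID differed by 0.47 (SE 0.143, adjusted p = 0.104), and by DESeq2 this passed (adjusted p = 0.0204). This difference, and those of UHRF1-AID from the other lines at day 4, fall across the alignment folders.

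The enzymes of the last step were higher at day 4 than at day 0 in all 4 lines, WT included. DGAT1 (chr8:144314584-144326910), which esterifies exogenous fatty acid, went from 52.2, 54.1 and 60.4 CPM in WT cells at day 0 to 86.9, 78.7 and 79.0 CPM at day 4. DGAT2 (chr11:75759512-75801535), which works with newly made fatty acid, went from 6.44, 6.96 and 7.88 CPM to 16.0, 17.3 and 11.97 CPM. No day 4 library of WT cells overlapped with day 0 for either gene. The WT rise was 1.47-fold for DGAT1 (log2 0.56, SE 0.103, adjusted p = 0.00381) and 2.13-fold for DGAT2 (log2 1.09, SE 0.177, adjusted p = 0.00213). In the WT comparison 3 of the 8 genes tested passed, beside 35.6% of all genes.

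UHRF1-AID cells, within 1 folder, gave 1.94-fold for DGAT1 (log2 0.96, SE 0.129, adjusted p = 0.000336) and 3.46-fold for DGAT2 (log2 1.79, SE 0.188, adjusted p = 9.30e-05), where 4 of the 10 genes and 49.4% of all genes passed. DNMT1-AID cells gave 1.77-fold for DGAT1 (log2 0.82, SE 0.149, adjusted p = 0.00167) and 2.26-fold for DGAT2 (log2 1.18, SE 0.246, adjusted p = 0.00363), where 3 of the 10 and 40.4% of all genes passed. In the compound line the rises were 2.03-fold (log2 1.02, SE 0.0806, adjusted p = 3.87e-09) and 3.23-fold (log2 1.69, SE 0.123, adjusted p = 1.31e-09), where 4 of the 8 tested and 67.8% of all genes passed. With the length slope as covariate the DGAT1 value of the compound line turned to -0.21 and DGAT2 there was 1.67 with an adjusted p of 0.723.

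**Figure D4:**
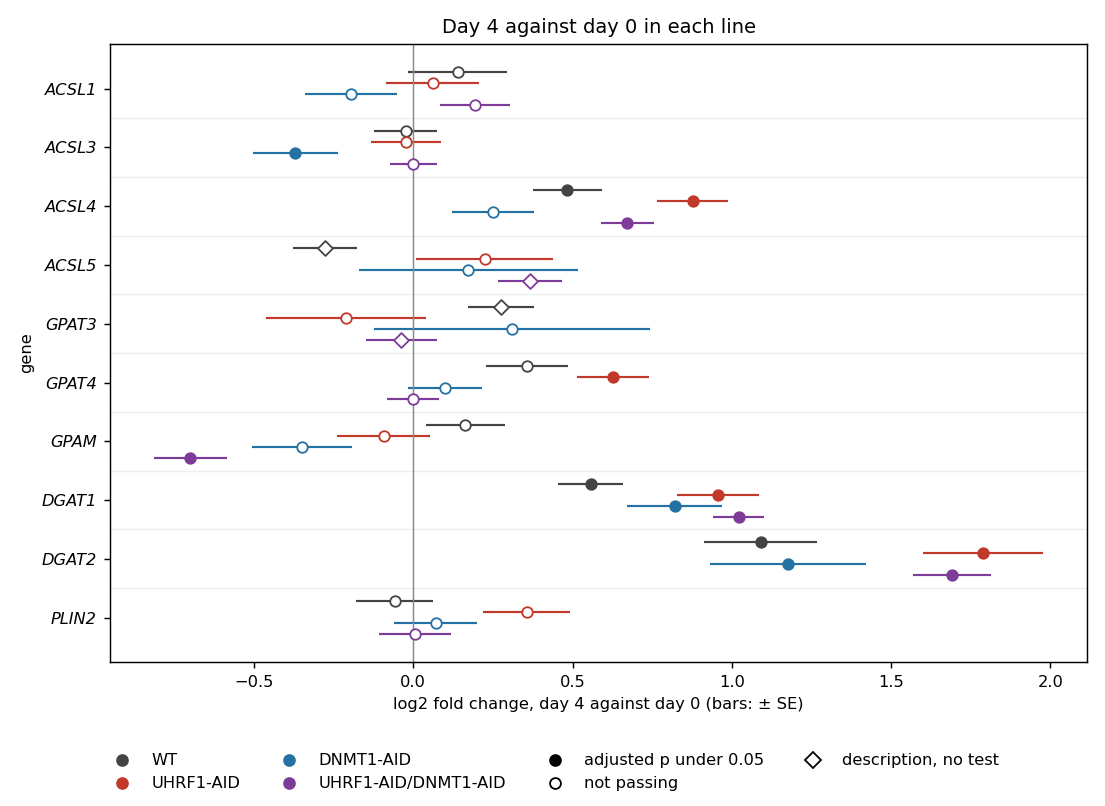
Log2 fold change from day 0 to day 4 of each of the 10 genes in the 4 lines, with bars of 1 SE, filled points for an adjusted p under 0.05 and diamonds for values given as a description. DGAT1 and DGAT2 are filled in all 4 lines (0.56 to 1.02 and 1.09 to 1.79), ACSL4 in all but DNMT1-AID, ACSL3 in DNMT1-AID, GPAT4 in UHRF1-AID and GPAM in the compound line.

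At day 4 the 2 lines with tagged UHRF1 stood apart in DGAT2. Its libraries read 27.6, 32.6 and 24.9 CPM in UHRF1-AID and 24.7, 26.6 and 27.3 CPM in the compound line, all above the highest of WT (17.3 CPM) and of DNMT1-AID cells (18.0, 14.4 and 20.4 CPM). DGAT2 was 1.87-fold higher than WT in UHRF1-AID (log2 0.90, SE 0.181, adjusted p = 0.00891) and 1.76-fold higher in the compound line (log2 0.81, SE 0.145, adjusted p = 0.000142). DNMT1-AID cells differed from WT by 0.23 (SE 0.175, adjusted p = 0.451). DGAT2 was higher than in DNMT1-AID cells in both, by 0.65 in UHRF1-AID (adjusted p = 0.0378, lost in 5 of 6 fits without 1 library) and by 0.58 in the compound line (adjusted p = 0.00475, and -0.24 with the length slope as covariate). The 2 lines with tagged UHRF1 differed by -0.07 (SE 0.144, adjusted p = 0.76).

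DGAT1 at day 4 was higher than WT in the compound line, at 110, 117 and 128 CPM (log2 0.56, SE 0.096, adjusted p = 0.000104). UHRF1-AID cells held 89.85, 112 and 96.7 CPM and differed by 0.28 (SE 0.12, adjusted p = 0.138), and DNMT1-AID cells held 105, 114 and 87.4 CPM and differed by 0.33 (SE 0.106, adjusted p = 0.0726). Every day 4 library of a degron line lay above the highest WT library (86.9 CPM). With the length slope as covariate, the compound line's differences from WT were 0.36 for DGAT1 (adjusted p = 0.324) and 0.23 for DGAT2 (adjusted p = 0.702).

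Differences between day effects were tested for 3 pairs of lines, none with the compound line, and ACSL5 and GPAT3 were tested in 1 of them. The DGAT2 day effect of UHRF1-AID minus that of WT was 0.65 (SE 0.256, adjusted p = 0.19) and the DGAT1 value 0.36 (SE 0.157, adjusted p = 0.243). In edgeR 0 of 8 genes passed in this comparison (4 at an unadjusted p under 0.05), 0 of 8 for DNMT1-AID minus WT (1 unadjusted) and 0 of 10 for UHRF1-AID minus DNMT1-AID (2 unadjusted), where 3.62%, 0.153% and 1.15% of all genes passed. DESeq2 called 0, 0 and 2, the last being ACSL4 and GPAT4.

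PLIN2 (chr9:19108375-19149290), whose protein is stabilised by stored lipid, stayed between 20.34 and 29.62 CPM in all 24 libraries and passed in no comparison. The difference nearest the threshold was the day effect in UHRF1-AID cells, 0.36 (SE 0.136, adjusted p = 0.0535), from 20.3, 22.7 and 24.7 CPM to 26.1, 29.5 and 29.6 CPM. There the replicate numbers paired the libraries, and with the pair as a block the adjusted p was 0.0452.

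Across the 24 libraries, the genes whose log2 level was most like that of ACSL5 were PTBP3 (Pearson r 0.908), GPAT3 (0.848) and PKIB (0.841), among 15750 genes. For GPAT3 they were ELK1 (0.944), a transcription factor, PTBP3 (0.935) and FAM110C (0.933). The libraries share lines and days, and they include the day 0 libraries on which ACSL5 and GPAT3 were chosen together. The r between this pair therefore follows in part from the choice, and all these values are a description. Of the other members, GPAM came nearest to GPAT3 at 0.597, and PLIN2 was at -0.194. PTBP3, an RNA-binding protein, went from 190.7 ± 3.81 CPM in WT cells at day 4 to 135.7 ± 3.50 CPM in the compound line. PKIB, an inhibitor of protein kinase A, went from 95.8 ± 10.8 to 24.1 ± 5.12 CPM.

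The rest of the pathway was read from 6 lists that hold 83 genes besides the members. In UHRF1-AID cells against WT at day 4, 59 of these were tested, 7 were higher and 5 lower. DNMT1-AID cells had 4 higher and 0 lower of 56. The compound line had 17 higher and 8 lower of 60. All 3 shares lay close to those of all genes given above, and the median log2 fold change of the listed genes was 0.03, 0.07 and 0.12 beside 0.03, 0.00 and 0.02 over all genes. Some listed genes had almost no counts in WT cells and passed the filter on low counts only where another line held more. These counts and medians therefore cover different genes in each line and are a description.

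Among the other acyl-CoA synthetases, 2 were higher and 3 lower of 14 tested in UHRF1-AID cells, 0 of 12 passed in DNMT1-AID cells, and 5 were higher and 4 lower of 15 in the compound line. Both higher genes in UHRF1-AID cells (ACSL6, ACSBG1) and 4 of the 5 in the compound line (these, ACSS1 and ACSS3) had at most 2 counts in any WT library at day 4, so they could enter the test only through the line with more counts, and they are given by their counts. ACSBG1, ACSS1 and ACSS3 were not tested in DNMT1-AID cells. The other higher gene was SLC27A5, a bile acid and fatty acid CoA ligase, at 12.2, 12.8 and 10.6 CPM in WT and 18.3, 21.0 and 16.3 CPM in the compound line (log2 0.66, SE 0.151, adjusted p = 0.00151). ACSL6, which like SLC27A5 is named after its values were seen, had 2, 0 and 0 counts in WT, 7, 5 and 12 in DNMT1-AID, 13, 24 and 21 in UHRF1-AID and 20, 30 and 17 in the compound line. ACSBG1, a synthetase of brain and testis, had 2, 1 and 1 counts in the WT day 4 libraries, 3, 2 and 4 in DNMT1-AID, 38, 27 and 43 in UHRF1-AID and 43, 39 and 45 in the compound line's libraries. Over the summed counts, UHRF1-AID and the compound line were 21.7-fold (95% exact interval 8.22 to 80.9, for counting error only) and 31.8-fold (12.1 to 118) above WT. ACSBG1 was named for this difference, so the intervals are no test of it. WT cells at day 0 held 5 to 11 counts of ACSBG1 per library, 0.433 CPM on average beside 0.0826 CPM at day 4. The ratios therefore hold for WT at day 4 only. ACSS1, a mitochondrial acetyl-CoA synthetase, had 0 counts in every WT library, 3, 1 and 2 in DNMT1-AID, 8, 17 and 17 in UHRF1-AID and 25, 14 and 14 in the compound line at day 4. The mean of the last was 5.89-fold above a floor of 3 counts per library put in place of the WT counts. ACSS3 had 0 counts in WT, 3, 0 and 1 in DNMT1-AID, 10, 12 and 14 in UHRF1-AID and 24, 21 and 27 in the compound line. The mean of the last was 7.99-fold above the same floor. ACSM3, a medium-chain synthetase, was lower, going from 6.06, 5.24 and 5.05 CPM in WT to 0.983, 1.27 and 1.19 CPM in the compound line (log2 -2.22, SE 0.269, adjusted p = 1.64e-06) and to 1.95, 1.43 and 2.18 CPM in UHRF1-AID cells (log2 -1.56, SE 0.252, adjusted p = 0.00325).

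Of the acyltransferases and phosphatases between GPAT and DGAT, 0 were higher and 1 lower of 14 in UHRF1-AID cells, 0 passed in DNMT1-AID cells, and 3 were higher and 1 lower in the compound line. The lower gene was AGPAT5, a lysophosphatidic acid acyltransferase. It stood at 732, 670 and 642 CPM in WT cells at day 4 and at 320, 328 and 338 CPM in the compound line (log2 -1.03, SE 0.0956, adjusted p = 4.00e-08), and at 369, 418 and 261 CPM in UHRF1-AID cells (log2 -0.97, SE 0.168, adjusted p = 0.00451). In all 4 lines AGPAT5 was nonetheless above its day 0 range of 130 to 178 CPM.

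Droplet proteins had 3 higher of 7 tested in UHRF1-AID cells, 0 of 6 in DNMT1-AID and 1 of 6 in the compound line. These counts turn on PLIN4 and CIDEC, which had few counts in WT, entered the test only through the line with more, and were not tested in DNMT1-AID cells (CIDEC also not in the compound line), so they are given by their counts. PLIN4, a perilipin of fat and muscle, had 1, 0 and 2 counts in WT cells at day 4, 9, 19 and 13 in DNMT1-AID, 36, 17 and 56 in UHRF1-AID and 39, 49 and 40 in the compound line. Every library of the 3 degron lines was above the highest WT library. Over the summed counts UHRF1-AID and the compound line were 29.1-fold (9.71 to 144) and 42.7-fold (14.3 to 210) above WT. PLIN4 too was named for its difference, so these intervals are no test of it. WT cells at day 0 held 3 to 8 counts of PLIN4 per library, 0.289 CPM on average beside 0.0613 CPM at day 4. These ratios hold for WT at day 4 only. PLIN5, which ties droplets to mitochondria, went from 2.62, 1.81 and 1.98 CPM in WT to 5.07, 3.97 and 4.68 CPM in UHRF1-AID cells (log2 1.09, SE 0.255, adjusted p = 0.0179). CIDEC, which fuses droplets in fat cells, had 2, 2 and 6 counts in WT, 9, 28 and 12 in DNMT1-AID, 13, 17 and 15 in UHRF1-AID and 8, 11 and 1 in the compound line. Both single-tag lines thus lay above WT in every library, and the compound line overlapped with WT.

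Of 6 lipolysis genes 0 passed in UHRF1-AID cells (MGLL -0.78, SE 0.297, adjusted p = 0.0963), 1 was higher in DNMT1-AID cells, and 2 were higher and 1 lower in the compound line. The higher genes, named after their values were seen, were LIPA, the lysosomal acid lipase, in both lines (log2 0.42, adjusted p = 0.0197, and 0.59, adjusted p = 0.0122) and PNPLA2, the adipose triglyceride lipase, in the compound line (log2 0.51, adjusted p = 0.0189). The lower one was MGLL, the monoglyceride lipase, at 6.12, 8.19 and 6.79 CPM in WT and 3.38, 2.21 and 2.86 CPM in the compound line (log2 -1.30, SE 0.23, adjusted p = 0.000133). In the list of acyl-CoA hydrolysis and mitochondrial import, 1 of 9 passed in UHRF1-AID and in DNMT1-AID cells and was higher, beside 17.4% and 7.95% of all genes. In the compound line 6 of 10 were higher and 0 lower, beside 38.2% of all genes in either direction. ACOT2, among these 6, could enter the test only through that line. CPT1C, a carnitine palmitoyltransferase of neurons, was at 22.7, 24.6 and 26.5 CPM in WT and 43.3, 54.7 and 55.5 CPM in the compound line (log2 1.08, SE 0.122, adjusted p = 7.13e-07). Its single-tag differences were 0.51 in UHRF1-AID (adjusted p = 0.0355) and 0.58 in DNMT1-AID cells (adjusted p = 0.00875). Before auxin, CPT1C already differed from WT by 0.55 in DNMT1-AID (adjusted p = 0.801) and 0.66 in the compound line (adjusted p = 0.0615). In UHRF1-AID cells that day 0 difference was -0.15 (adjusted p = 0.947). The CPT1C day effect of DNMT1-AID minus that of WT was 0.011 (adjusted p = 0.99). ACOT2, a mitochondrial thioesterase, had 0 counts in WT, 0, 1 and 2 in DNMT1-AID, 5, 9 and 18 in UHRF1-AID and 21, 47 and 53 in the compound line, the only line in which it was tested against WT. The mean there was 13.4-fold above a floor of 3 counts per library put in place of the WT counts. Reads of ACOT2 could be shared with the near-identical ACOT1 next to it, which makes its count uncertain. The list of transcription factors and PPAR targets had 9 genes tested per comparison. Against WT, UHRF1-AID had 1 higher and 1 lower, DNMT1-AID 2 and 0, and the compound line 0 and 2. None of these passed an absolute log2 fold change of 1. Relative to DNMT1-AID at day 4, UHRF1-AID had 0 higher and 5 lower, 4 of them past 1, beside 13.9% of all genes passing. The compound line had 0 higher and 5 lower in that comparison, 1 of them past 1, beside 20.5%. Relative to UHRF1-AID it had 2 higher and 1 lower, 0 past 1. Alignment folder (UHRF1-AID) or length lean (compound line) cannot be told apart from group in these comparisons between degron lines. The gene of this list that passed in all 3 lines, named after its values were seen, was PPARG, a nuclear receptor that governs fat storage: it was lower in UHRF1-AID (log2 -0.64, SE 0.166, adjusted p = 0.0274) and the compound line (log2 -0.63, SE 0.125, adjusted p = 0.000463) and higher in DNMT1-AID cells (log2 0.50, SE 0.142, adjusted p = 0.0451). At day 4 its level was 44.1, 36.0 and 38.2 CPM in WT, 54.2, 68.2 and 44.9 CPM in DNMT1-AID, 20.4, 26.1 and 29.9 CPM in UHRF1-AID and 23.95, 28.7 and 23.2 CPM in the compound line, so that the ranges of the 3 degron lines lay apart from that of WT.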

How the data were processed

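RNA of 24 HCT116 libraries (4 lines, day 0 and day 4, 3 replicates) was sequenced. The authors prepared libraries with a NEBNext Ultra kit, sequenced paired ends on a NovaSeq, trimmed with Trimmomatic, aligned with STAR to hg38 and used featureCounts to count reads over genes. The deposited files hold these raw counts, 1 table per library. Strand and multimapping settings are not given in the sources used here, and 0 columns of values were left unused. Gene symbols were found for 58207 of 58735 genes. ERCC rows stayed out of library sizes and tests. They held 0.891% to 1.65% of counts in 9 libraries and 0 in 15.

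Groups came from the labels. Each comparison was fitted on its own groups with edgeR 4.0.16 (R 4.3.3; filterByExpr, TMM, robust quasi-likelihood test) and adjusted by Benjamini-Hochberg over all genes. A gene passed at an adjusted p under 0.05. CPM are TMM-scaled over all 24 libraries, and per-length levels divide by the summed exon length. DESeq2 1.42.0 and other alternatives are given at the end. The main edgeR fit alone was tried on simulated data. This was done for UHRF1-AID against WT at day 4 and for the UHRF1-AID minus DNMT1-AID day effect. Differences between day effects were tested as interaction terms. Figures were drawn with matplotlib 3.10.9 under Python 3.11.15. P-values measure the spread between the study's biological replicates, which were clones in the tagged lines. Counting intervals cover counting error only, and floors replace the WT counts without covering error in the other line. The 24 pairs of replicates within groups differed by 3.52 to 59.2 chi-square units per degree of freedom, so no library was a repeat.

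The members and lists were chosen with earlier results of these data known. The text names all 10 members, UHRF1 and DNMT1, up to 4 genes per other list that passed with a change of more than 1 log2 unit in a degron line against WT at day 4, taken by smallest p, and for ACSL5 and GPAT3 the 3 genes of highest correlation (log2 CPM, prior count 2). Genes named outside this rule are marked in the text. The direction of UHRF1-AID/DNMT1-AID against WT at day 0 is not tested for any member, nor are ACSL5 and GPAT3 where their WT or compound day 0 libraries enter. Whether equal replicate numbers pair libraries was checked by the correlation of deviations from group means over 13 comparisons (-0.715 to 0.317). All 3 exceeded 0.1 (0.156 to 0.288) only for UHRF1-AID day 4 against day 0, where the numbers were taken as pairs from the data alone. Exon overlaps were taken from GENCODE release 44 and start windows from RefSeq (GRCh38.p14).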

Additional observations from a re-analysis of the deposited data

Results flagged for a closer look

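ERCC spike-in sequences, which the comparisons did not use, were counted in 9 of the 24 libraries, those of WT, DNMT1-AID and UHRF1-AID/DNMT1-AID cells at day 4, and were at 0 in the other 15. The highest share was 1.65% of counts, in replicate 1 of UHRF1-AID/DNMT1-AID at day 4. It stands out because the UHRF1-AID day 4 libraries and all day 0 libraries hold none. Whether this difference between libraries touches the members was not tested.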

How the results depend on the processing

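Of 37 values of members, 175 of 222 fits that left out 1 library kept direction and side of the threshold, 47 lost the call and 0 reversed among called values. Of 259 fits under other settings 232 kept it, 25 lost it and 2 reversed. Kept values numbered 36 under RLE scaling, 37 with no filter, 34 with at least 10 counts in every library, 35 with all 24 libraries in 1 fit, 36 in DESeq2, 31 with the replicate block and 23 with the gene length slope as covariate. That slope left 3 of 6 calls for UHRF1-AID/DNMT1-AID against WT at day 4, 1 of 4 against UHRF1-AID, 0 of 4 against DNMT1-AID and 0 of 4 between the days, and gave 5 for UHRF1-AID against WT, 5 for the DNMT1-AID day effect and 1 for the difference of the UHRF1-AID and DNMT1-AID day effects. It turned DGAT2 to -0.24 (compound line against DNMT1-AID, day 4), and in the compound line's day effect DGAT1 to -0.21 and GPAT3 to 0.63. All 24 libraries in 1 fit gave 5 calls for UHRF1-AID against WT at day 4 and 2 for the difference of the UHRF1-AID and DNMT1-AID day effects, as did DESeq2 for the latter. Requiring an absolute log2 fold change over 1 left 1 call for UHRF1-AID, 0 for DNMT1-AID and 2 for the compound line against WT at day 4, 1 for UHRF1-AID against DNMT1-AID, 0 and 2 for the compound line against UHRF1-AID and DNMT1-AID, and 1, 1, 1 and 2 for the day effects of WT, UHRF1-AID, DNMT1-AID and the compound line. For DNMT1-AID against WT at day 4 the 2 calls fell to 0 with at least 10 counts and to 0 with the replicate block. Where numbers do not pair libraries, the block also ended ACSL4 and DGAT2 between UHRF1-AID and DNMT1-AID (adjusted p = 0.113 and 0.103), GPAM between the compound line and UHRF1-AID (0.0696) and ACSL3 in DNMT1-AID (0.0704), and gave GPAT3 between UHRF1-AID and DNMT1-AID (0.0462). Where they pair, it added PLIN2 and changed no other call. Without 1 library, counts ranged from 3 to 4 for UHRF1-AID, 0 to 2 for DNMT1-AID and 5 to 6 for the compound line against WT at day 4, 2 to 4 for UHRF1-AID against DNMT1-AID, 0 to 6 and 2 to 4 for the compound line against UHRF1-AID and DNMT1-AID, and 3 to 4, 4 to 5, 2 to 4 and 4 to 4 for the day effects of WT, UHRF1-AID, DNMT1-AID and the compound line. The differences between day effects ranged from 0 to 1. ACSL5 in DNMT1-AID against WT at day 0 ranged from -0.60 to 0.033, and it was 0.033 without DNMT1-AID replicate 3. GPAT3 in the compound line's day effect ranged from -0.15 to 0.034, and it was 0.034 and 0.015 without replicate 1 of day 0 or of day 4. The GPAT3 difference of DNMT1-AID and WT day effects, 0.04, ranged from -0.30 to 0.34, and it was -0.023, -0.27 and -0.30 without WT day 0 replicate 2, DNMT1-AID day 0 replicate 3 or DNMT1-AID day 4 replicate 2. The causes were not tested. At 107 counts or more per member, depth limits the members less than the spread between replicates, while ACSS1, ACSS3, ACSBG1, PLIN4 and CIDEC rest on few counts.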
